A study of Mus musculus with 6 samples.

Results

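Id1, Id2, Id3, Id4, Msx1, Msx2, Bambi, Smad6, Smad7 and Smad9 are genes that BMP signalling is known to switch on in many cell types. These 10 were taken by name from the 19342 gene names of a count table made from cultured mesoderm progenitor cells of the mouse tailbud. The names are in register only with the columns of the untreated libraries, and the columns of the growth factor libraries had to be placed beside them by an alignment. Of the 10 genes, 8 were placed in all 6 libraries, while Smad6 and Smad7 were read in the untreated libraries only.

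Total RNA was sequenced from C57BL/6 mesoderm progenitor cells in 6 libraries, with 1 library per condition. Untreated cells were collected at 0 h and at 96 h in culture. The others received growth factors after 96 h: rhBMP4 for 5 h, rhBMP4 with rhFGF8 for 5 h, rhBMP4 for 11 h, and rhBMP4 with rhFGF4 for 11 h, which brought the time in culture to 101 h and 107 h. All 6 carry the same culture description, in serum-containing DMEM on a layer of wild-type C57BL/6 embryonic fibroblasts treated with mitomycin C, so fibroblast RNA can be present in any library. The labels give no genotype other than the strain, no age and no number of embryos. No untreated library of 101 h or 107 h is part of the series, so a growth factor and the extra hours in culture cannot be told apart in a comparison with 96 h. With 1 library per condition no difference has a replicate check, no p-value is given, and every interval is an exact 95% counting interval that covers counting error only.

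BMP ligands bind a complex of type I and type II receptor kinases, which phosphorylates SMAD1, SMAD5 and SMAD9. These join SMAD4 and enter the nucleus, where they bind GC-rich elements and, with SMAD4, short SMAD elements near target genes. The Id genes, which lie among the most direct targets, encode helix-loop-helix proteins without a DNA-binding domain that hold E proteins away from DNA, and BAMBI, SMAD6 and SMAD7 damp the signal that induced them. In the tailbud, BMP signalling is known for its part in the choice between mesodermal fates along the body axis.

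Upstream sequence is shown for 3 of the genes: Id4, whose level differed most between libraries, Smad9, whose level differed next most, and Msx1, a homeobox target shown for contrast. The windows are the 250 bases before the annotated start in RefSeq on GRCm38.p6 (mm10), at chr13:48260866-48261115 on the plus strand for Id4, chr3:54755332-54755581 on the plus strand for Smad9 and chr5:37824586-37824835 on the minus strand for Msx1. None of these windows holds an annotated exon. Capitals mark GGCGCC, a palindromic core of the GC-rich BMP element.
Id4: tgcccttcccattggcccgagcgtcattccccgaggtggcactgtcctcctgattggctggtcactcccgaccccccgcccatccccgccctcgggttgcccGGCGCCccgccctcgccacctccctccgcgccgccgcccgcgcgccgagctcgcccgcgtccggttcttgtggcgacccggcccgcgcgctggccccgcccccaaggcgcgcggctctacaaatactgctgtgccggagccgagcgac
Smad9: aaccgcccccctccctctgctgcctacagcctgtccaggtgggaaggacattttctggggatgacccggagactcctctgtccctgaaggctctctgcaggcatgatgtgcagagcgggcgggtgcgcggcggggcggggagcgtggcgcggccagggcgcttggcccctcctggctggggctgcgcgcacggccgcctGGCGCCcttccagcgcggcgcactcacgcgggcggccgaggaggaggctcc
Msx1: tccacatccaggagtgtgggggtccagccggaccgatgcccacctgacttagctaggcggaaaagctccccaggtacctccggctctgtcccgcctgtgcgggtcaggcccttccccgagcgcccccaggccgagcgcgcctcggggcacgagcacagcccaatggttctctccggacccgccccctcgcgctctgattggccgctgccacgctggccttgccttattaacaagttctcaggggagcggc

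GGCGCC was searched on both strands, and GTCTG, which reads CAGAC on the other strand, was searched as a SMAD element of 5 bases. The windows of 7 genes were read, and those of Id1, Bambi and Smad7 are not used here. GGCGCC was present in 3 of 7 windows (Id2, Id4 and Smad9), against 9.59% of 32851 promoter windows of the same length. In Id4 the match starts 148 bases before the annotated start, and in Smad9 it starts 51 bases before it. GTCTG or CAGAC was present in 1 of 7 windows (Id3, with 2 matches), against 42.2% of all windows. No window held both motifs, so no matches overlapped. The Id4, Smad9 and Msx1 windows were 75.6%, 73.2% and 68% G or C. GGCGCC holds only these letters, and the G or C share of all promoter windows was not taken. The 9.59% is therefore not matched for it. By the GENCODE annotation the windows of Id2, Id3 and Msx2 hold exon sequence of these genes themselves, so the matches of Id2 and Id3 are not upstream of the gene there. A match is a description of these letters, and its absence says only that they are not in this window.

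Total counts per library lay between 179196459 and 272743104, and levels are given as CPM, counts scaled to library size, after TMM scaling. A gene is called different between 2 libraries where the ratio of CPM, with 0.5 CPM added to both, was at least 2-fold and the counting interval of the plain ratio excluded 1. Of the genes, 13570 were tested. The BMP4 libraries of 5 h lay close to 0 h and not to 96 h: 0.339% of genes were called between BMP4 at 5 h and 0 h, against 5.22% between BMP4 at 5 h and 96 h. Summed markers of tailbud and presomitic mesoderm (10 of 12 tested, with Cdx2 and Cdx4 not tested) followed the same division, at 420 CPM at 0 h, 44.6 at 96 h, 398 and 395 in the 5 h libraries with BMP4 alone and with FGF8, and 225 and 70.9 in the 11 h libraries with BMP4 alone and with FGF4. The labelled cell type was thus marked by T at 85.3 CPM and Tbx6 at 41.7 at 0 h, while at 96 h T was at 7.84 and Tbx6 at 0.600. Red blood cell markers (9 of 10 tested) summed to 22.8 CPM at 0 h and 5310 CPM at 96 h, and no tested marker of these lists was at 0. In such bulk samples fewer cells of a type and less RNA per cell cannot be told apart.

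The target genes spanned a wide range of levels. Per kilobase of exon, Id3 (27.9 CPM per kb), Id1 (27.4) and Id2 (20.9) were highest at 0 h, followed by Msx1 (9.12), Bambi (4.26), Smad6 (3.67), Msx2 (3.43), Smad7 (2.58), Id4 (0.476) and Smad9 (0.371). Id3 and Id1, the neighbours at the top, had overlapping counting intervals. The highest level was 75.1 times the lowest at 0 h and 81.9 times at 96 h, where Id3 was again highest and Id4 was lowest. All 10 genes passed the filter of at least 1 CPM in at least 1 library. Within a gene, levels varied far less: the highest library was 1.23 times the lowest for Msx2, 1.32 for Id1, 1.37 for Id3, 1.41 for Bambi, 1.51 for Msx1 and 1.52 for Id2. Smad9, at 2.10 times, and Id4, at 3.92 times, varied most.

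**Figure D1:**
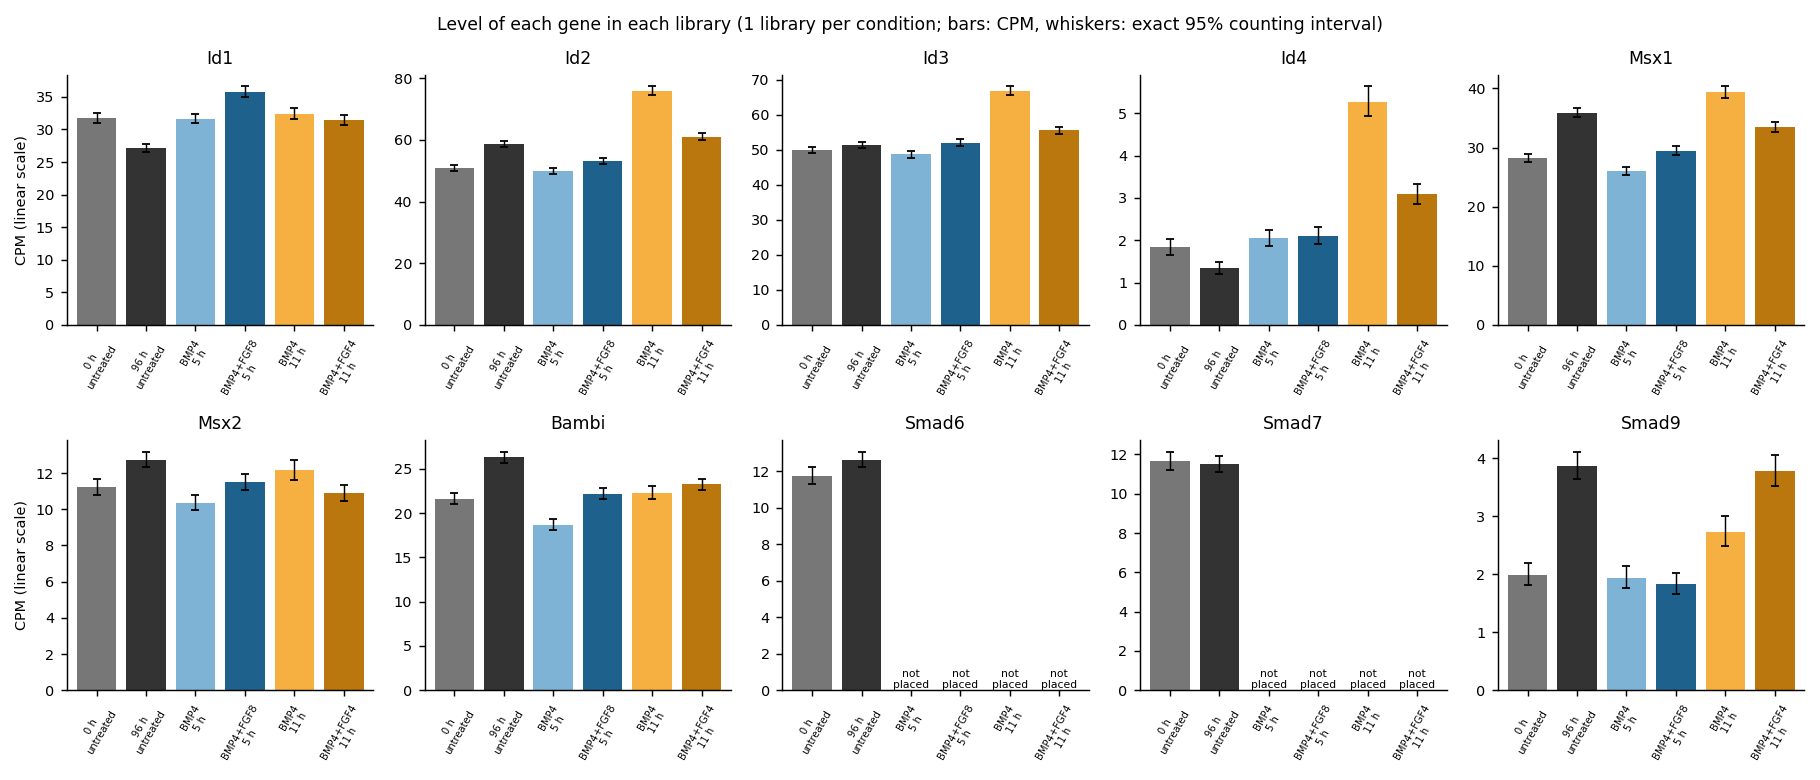
Level of each of the 10 genes in each library, in CPM on a linear scale that starts at 0 in each panel, with whiskers for the exact 95% counting interval and 1 library per bar. Id2, Id3, Id4 and Msx1 were highest in the library of BMP4 for 11 h, while Msx2, Bambi and Smad9 were highest at 96 h, and Smad6 and Smad7 have values in the untreated libraries only.

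Among the Id genes, Id4 stood out in the 11 h libraries. Its level was 1.83 CPM at 0 h, 1.35 at 96 h, 2.05 with BMP4 for 5 h, 2.11 with BMP4 and FGF8 for 5 h, 5.27 with BMP4 for 11 h and 3.08 with BMP4 and FGF4 for 11 h. These levels rest on 392, 357, 442, 463, 866 and 644 counts, in the same order. Both 11 h libraries lay above all 4 others, and the counting intervals of the 0 h and both 5 h libraries overlapped. ID4 is the member of its family best known from neural and mammary progenitors.

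With BMP4 for 11 h, Id4 rose by 1.64 on the log2 scale over 96 h (plain ratio 3.92, interval 3.46 to 4.44). It was the 1 gene called of the 8 read in this comparison, in which 2.11% of all genes tested were called. It also rose by 1.18 between 5 h and 11 h of BMP4 (plain ratio 2.57, interval 2.29 to 2.89), again as the 1 gene called of 8, beside 2.61% of all genes. With BMP4 and FGF4 for 11 h, Id4 was 0.96 higher than at 96 h on the log2 scale, just under the 2-fold line, although the plain ratio was 2.29 (interval 2.01 to 2.62). The added 0.5 CPM accounts for this gap at so low a level. Of the 8 genes 0 were called there, beside 1.09% of all genes. In the 11 h columns the row read as Id4 was favoured over any other by 8.40 units (BMP4) and 9.26 units (with FGF4) of the alignment score, where 5 were required, and a requirement of 10 would leave Id4 unread. With 2 CPM added in place of 0.5, the call between 5 h and 11 h was lost and that over 96 h was not.

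Between the 11 h libraries, Id4 had a log2 ratio of -0.69 with FGF4 over BMP4 alone (plain ratio 0.585, interval 0.527 to 0.649). This passed 1.5-fold but not 2-fold, and with plain total counts (-0.56) or 2 CPM added (-0.52) it did not pass 1.5-fold. Relative to 96 h, the 5 h libraries gave Id4 log2 ratios of 0.47 with BMP4 and 0.50 with BMP4 and FGF8. Relative to 0 h, BMP4 for 5 h gave 0.13. The ratios over 96 h all use the same 96 h library, in which Id4 had its lowest value.

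The Id4 gene lies at chr13:48261228-48266026 on the plus strand of mm10, and its 5′ end overlaps the antisense gene A330033J07Rik (chr13:48044231-48262623, minus strand) and a long non-coding gene that is not in the table. The library kit keeps strand, but the strand setting of the counting is not given in the sources used here, so reads of Id4 and of its antisense neighbours cannot be told apart where they overlap. A330033J07Rik was at 0.875 CPM at 0 h, 0.449 at 96 h, 0.673 and 0.934 in the 5 h libraries with BMP4 alone and with FGF8, and 2.45 and 1.52 in the 11 h libraries with BMP4 alone and with FGF4. Like Id4, it was highest with BMP4 for 11 h and lowest at 96 h. Its log2 ratio over 96 h was 1.64 with BMP4 for 11 h and 1.09 with BMP4 and FGF4, and both were called.

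Over the 6 libraries, the genes whose log2 levels followed Id4 most closely, among 9465 genes with a mean of at least 5 CPM, were Tob1 (Pearson r = 0.9965), Tcte3 (r = 0.9957) and Pawr (r = 0.9939). These values describe 6 libraries and carry no test. Tob1 encodes an antiproliferative protein that also binds SMADs. It was at 10.6 CPM at 0 h, 8.07 at 96 h, 10.7 and 11.6 in the 5 h libraries with BMP4 alone and with FGF8, and 21.8 and 14.8 in the 11 h libraries with BMP4 alone and with FGF4. Tcte3 ran from 46.4 CPM at 96 h to 88.6 with BMP4 for 11 h, and Pawr from 13.5 to 22.3 between the same libraries. Each of the 3 thus had its lowest level at 96 h and its highest with BMP4 for 11 h, as Id4 did.

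**Figure D2:**
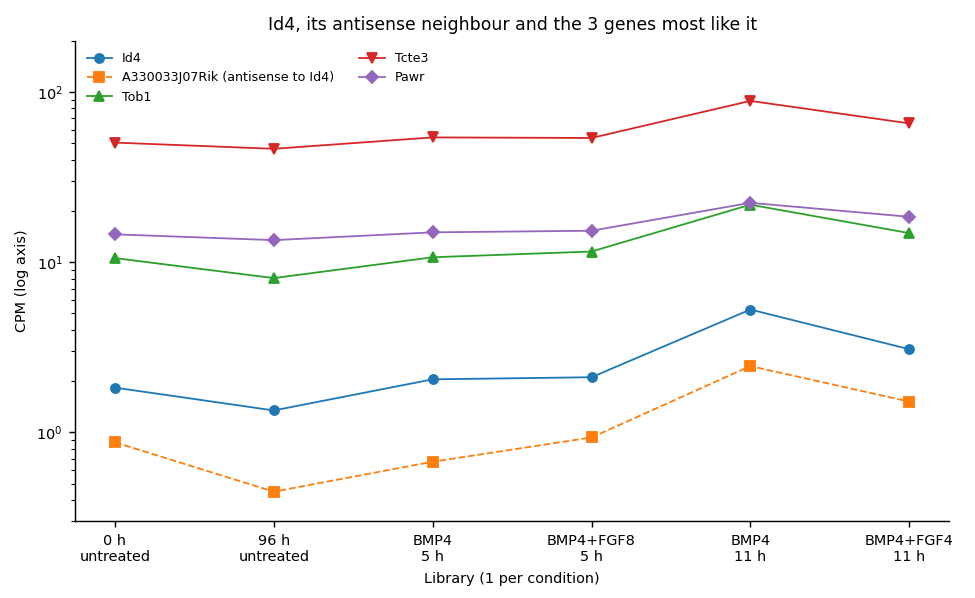
Levels of Id4, its antisense neighbour A330033J07Rik and the 3 genes most like Id4 (Tob1, Tcte3 and Pawr) in the 6 libraries, in CPM on a log axis, with 1 library per point. All 5 were highest with BMP4 for 11 h and lowest at 96 h, and Id4 ran from 1.35 to 5.27 CPM.

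The other Id genes were expressed at much higher levels and differed by less. Id1, the family member most often used as a readout of BMP signalling, was at 31.8 CPM at 0 h, 27.2 at 96 h, 31.7 with BMP4 for 5 h, 35.8 with BMP4 and FGF8 for 5 h, 32.4 with BMP4 for 11 h and 31.5 with BMP4 and FGF4 for 11 h. The 96 h library was the lowest, and all 4 growth factor libraries lay between 31.5 and 35.8 CPM. Its log2 ratios over 96 h were 0.22 with BMP4 for 5 h, 0.39 with BMP4 and FGF8, 0.25 with BMP4 for 11 h and 0.21 with BMP4 and FGF4, and none passed 1.5-fold. Set against 0 h instead, BMP4 for 5 h gave -0.01. Id1 lies at chr2:152736251-152737410.

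Id2 was at 51.0 CPM at 0 h, 58.7 at 96 h, 50.05 with BMP4 for 5 h, 53.2 with BMP4 and FGF8 for 5 h, 76.0 with BMP4 for 11 h and 61.0 with BMP4 and FGF4 for 11 h. The BMP4 library of 11 h stood above the other 5, whose values all lay within 50.05 to 61.0 CPM. Its log2 ratio over 96 h was 0.37 with BMP4 for 11 h and 0.05 with BMP4 and FGF4, and -0.23 and -0.14 in the 5 h libraries with BMP4 alone and with FGF8. Between 5 h and 11 h of BMP4 the log2 ratio was 0.60, which passed 1.5-fold, but it was 0.49 with plain total counts and 0.58 with 2 CPM added, which did not. Id2 lies at chr12:25093799-25097140 and is known for its part in lymphoid, mammary and neural progenitors.

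Id3 was at 49.96 CPM at 0 h, 51.3 at 96 h, 48.7 with BMP4 for 5 h, 52.1 with BMP4 and FGF8 for 5 h, 66.8 with BMP4 for 11 h and 55.5 with BMP4 and FGF4 for 11 h. As for Id2, the highest library was BMP4 for 11 h, and the 5 others lay close together. Its log2 ratio over 96 h was 0.38 with BMP4 for 11 h, 0.11 with BMP4 and FGF4, -0.07 with BMP4 for 5 h and 0.02 with BMP4 and FGF8. Id3, at chr4:136143497-136145755, often acts together with Id1 in vessel and brain development. With FGF4 beside BMP4 at 11 h, the log2 ratio to BMP4 alone was -0.31 for Id2, -0.26 for Id3 and -0.04 for Id1.

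The Msx genes encode homeobox repressors that act downstream of BMP in limb, tooth and neural crest. Msx1 (chr5:37820485-37824583) was at 28.2 CPM at 0 h, 35.9 at 96 h, 26.0 with BMP4 for 5 h, 29.5 with BMP4 and FGF8 for 5 h, 39.4 with BMP4 for 11 h and 33.5 with BMP4 and FGF4 for 11 h. The 0 h and both 5 h libraries formed the lower end, and the 96 h and both 11 h libraries the upper end. Its log2 ratio to 96 h was -0.46 with BMP4 for 5 h, -0.28 with BMP4 and FGF8, 0.13 with BMP4 for 11 h and -0.10 with BMP4 and FGF4. Between 5 h and 11 h of BMP4 it was 0.59, past 1.5-fold, but 0.49 with plain total counts and 0.56 with 2 CPM added, which did not pass it.

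Msx2 (chr13:53466884-53473074) was the steadiest of the 8 genes placed. It was at 11.2 CPM at 0 h, 12.7 at 96 h, 10.4 with BMP4 for 5 h, 11.5 with BMP4 and FGF8 for 5 h, 12.2 with BMP4 for 11 h and 10.9 with BMP4 and FGF4 for 11 h. Its log2 ratios to 96 h were -0.29, -0.14, -0.07 and -0.22 for BMP4 at 5 h, BMP4 with FGF8, BMP4 at 11 h and BMP4 with FGF4. All 4 growth factor libraries thus lay below 96 h, by less than 1.5-fold.

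Among the feedback inhibitors, Bambi encodes a pseudoreceptor that lacks a kinase domain. Bambi (chr18:3507923-3516404) was at 21.6 CPM at 0 h, 26.3 at 96 h, 18.7 with BMP4 for 5 h, 22.2 with BMP4 and FGF8 for 5 h, 22.3 with BMP4 for 11 h and 23.2 with BMP4 and FGF4 for 11 h. The 96 h library was the highest of the 6, and BMP4 for 5 h was the lowest. Its log2 ratio to 96 h was -0.48 with BMP4 for 5 h, -0.24 with BMP4 and FGF8, -0.24 with BMP4 for 11 h and -0.18 with BMP4 and FGF4.

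Smad6 and Smad7 encode inhibitory SMADs, which block the receptor and SMAD complexes. Smad6 (chr9:63953076-64022059) was at 11.8 CPM at 0 h and 12.6 at 96 h, a log2 ratio of 0.10. Smad7 (chr18:75367529-75395935), a target of TGF-beta as well as of BMP, was at 11.7 and 11.5 CPM, a log2 ratio of -0.02. Neither passed 1.5-fold between the untreated libraries.

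Smad9 encodes a transducer of the BMP branch, also called SMAD8, and is itself a target of the pathway. Smad9 (chr3:54755582-54801257) was at 1.99 CPM at 0 h, 3.87 at 96 h, 1.94 with BMP4 for 5 h, 1.84 with BMP4 and FGF8 for 5 h, 2.73 with BMP4 for 11 h and 3.77 with BMP4 and FGF4 for 11 h. The 0 h and both 5 h libraries had overlapping counting intervals, as did the 96 h library and the one with FGF4. Smad9 was 0.81 higher at 96 h than at 0 h on the log2 scale (plain ratio 1.94, interval 1.73 to 2.18). With BMP4 for 5 h its log2 ratio to 96 h was -0.84 (plain ratio 0.502, interval 0.447 to 0.563). With BMP4 and FGF8 the log2 ratio to 96 h was -0.90 (plain ratio 0.475), the largest of its differences, which with 0.1 CPM added was called. All 3 differences passed 1.5-fold and not 2-fold, and with 2 CPM added the first and second, at 0.55 and -0.57, did not pass 1.5-fold.

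Smad9 levels went along with summed markers of other cell types. Endothelial markers (12 of 12 tested) summed to 11.6 CPM at 0 h, 125 at 96 h, 11.1 with BMP4 for 5 h, 12.0 with BMP4 and FGF8, 61.1 with BMP4 for 11 h and 167 with BMP4 and FGF4. Fibroblast markers (9 of 9 tested) summed to 186, 847, 267, 240, 520 and 1258 CPM in the same order. In both sums, as for Smad9, the 0 h and 5 h libraries were the lowest 3, BMP4 for 11 h lay between, and the 96 h and FGF4 libraries were the highest. Of the 9 fibroblast genes, 6 were called higher at 96 h than at 0 h, beside 5.84% of all genes called. The other members did not follow the sum: Thy1 and Fbln2 were lowest at 96 h (0.430 and 15.0 CPM), and Pdgfra lay between 78.7 and 94.5 CPM. Markers of lateral plate and heart (8 of 9 tested, Nkx2-5 not tested) ranged from 36.1 CPM with BMP4 for 5 h to 153 at 96 h, with the same division. The part of these cells in the Smad9 values was not tested.

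For the other genes the division was weaker or absent. Id4 was highest with BMP4 for 11 h, a library that was the highest in none of the 7 marker lists. Neural and neural crest markers (6 of 7 tested) summed to between 72.8 CPM with BMP4 and FGF4 and 81.8 at 96 h. Those of muscle (3 of 6 tested) had the same division as Smad9. They summed to 8.44 CPM at 0 h, and 10.3 and 10.2 in the 5 h libraries with BMP4 alone and with FGF8. The sum was 32.2 with BMP4 for 11 h, 43.1 with BMP4 and FGF4 and 62.8 at 96 h. The part of any of these cell types in the other target genes was not tested.

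**Figure D3:**
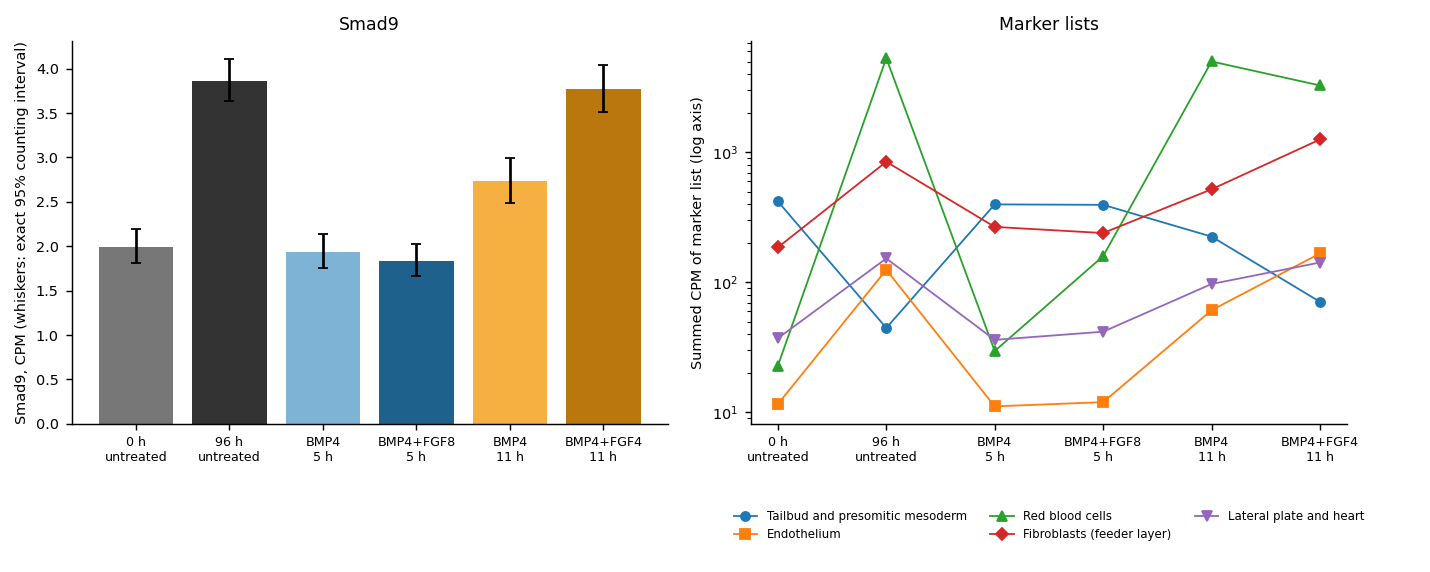
Left, Smad9 in CPM in each library on a linear scale from 0, with whiskers for the exact 95% counting interval. Right, summed CPM of 5 marker lists in the same libraries on a log axis, where the endothelial sum runs from 11.1 to 167 CPM and the 3 libraries with Smad9 under 2 CPM have the lowest endothelial sums.

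Taken as a group, the target genes had ratios of both signs in every comparison that used the 96 h library. In the comparison of 96 h with 0 h, 0 of 10 genes were called, beside 5.84% of all genes, and 1 of 10, Smad9, passed 1.5-fold, beside 12.6%. Their median log2 ratio was 0.14, beside 0.00 over all genes tested, with 7 ratios above 0 and 3 below. With BMP4 for 5 h, 0 of 8 were called, beside 5.22% of all genes. Smad9 alone passed 1.5-fold, in the lower direction, beside 11.6% of all genes in either direction. The median of the 8 was -0.26, beside -0.01 over all genes, and only Id1 and Id4 had ratios above 0. With BMP4 and FGF8, 0 of 8 were called over 96 h, beside 5.23%, and 1, Smad9 again, passed 1.5-fold, beside 11.6%, with a median of -0.14. Because the 5 h libraries resembled 0 h, their ratios to 96 h carry the difference between the untreated libraries as well.

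With BMP4 for 11 h, the median log2 ratio over 96 h was 0.19, beside -0.02 over all genes, and 5 of 8 ratios lay above 0. Only Id4 passed 1.5-fold, beside 7.06% of all genes. With BMP4 and FGF4, the median was 0.01, beside -0.03 over all genes, and only Id4 passed 1.5-fold, beside 4.88%. The comparisons over 96 h share that library and are not independent of each other.

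The 11 h library of BMP4 was above the 5 h library for each of the 8 genes placed, although for Id1 the counting interval of the ratio included 1 and plain total counts gave -0.07. The median log2 ratio was 0.43, beside -0.01 over all genes tested, and the 8 ratios ran from 0.03 for Id1 to 1.18 for Id4. The genes past 1.5-fold were Id2, Id4 and Msx1, 3 of 8, beside 6.99% of all genes, and with plain total counts or 2 CPM added only Id4 passed it. Bambi, at 0.25, Msx2, at 0.22, Smad9, at 0.41, and Id3, at 0.45, did not pass it. Between these libraries the red blood cell sum also went from 29.6 to 5007 CPM, the endothelial sum from 11.1 to 61.1 and the tailbud sum from 398 to 225, and the part of this in the target genes was not tested. Between BMP4 for 5 h and 0 h the 8 ratios lay between -0.20 (Bambi) and 0.13 (Id4), and 0 passed 1.5-fold, beside 0.862% of all genes.

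Adding an FGF to BMP4 gave differences under 2-fold for each of the 8 genes. Without regard to sign, their median log2 ratio was 0.12 with FGF8, beside 0.0628 over all genes. With FGF4 it was 0.248, beside 0.148. FGF8 at 5 h gave log2 ratios to BMP4 alone from -0.06 (Smad9) to 0.24 (Bambi). In that comparison 0 of 8 genes were called, beside 0.184% of all genes, and 0 passed 1.5-fold, beside 0.435%. With 7 of 8 ratios above 0, the median was 0.12, beside 0.01 over all genes. FGF4 at 11 h gave ratios to BMP4 alone from -0.69 (Id4) to 0.40 (Smad9). Here 0 of 8 genes were called, beside 1.64% of all genes, and 1, Id4, passed 1.5-fold, beside 5.76%. The median was -0.19, beside -0.02, with 6 of 8 below 0. With FGF4 the endothelial sum went from 61.1 to 167 CPM, the fibroblast sum from 520 to 1258 and the tailbud sum from 225 to 70.9. With FGF8 the red blood cell sum went from 29.6 to 159 CPM. The part of these in the target genes was not tested. FGF8 and FGF4 were given for different times, so their values are set side by side and not compared.

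**Figure D4:**
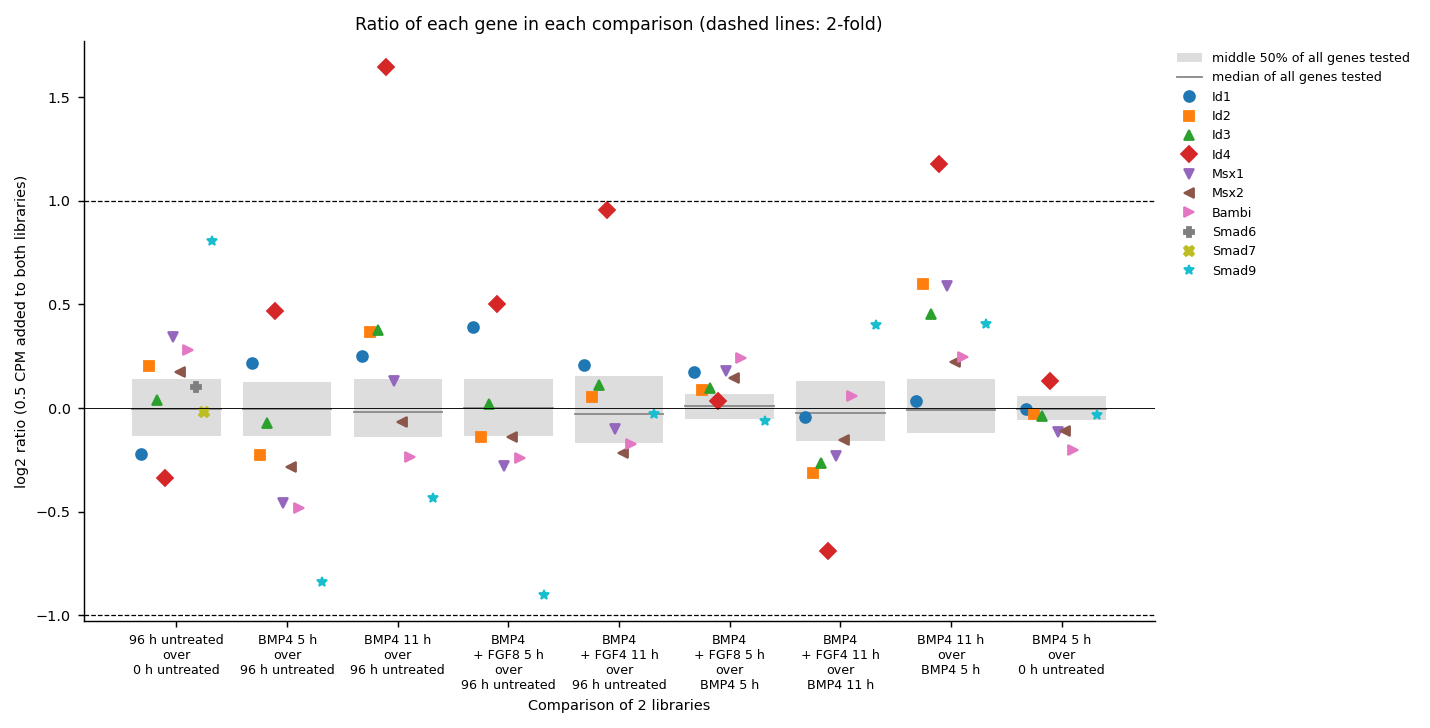
Log2 ratios of the target genes in 9 comparisons of 2 libraries, with 0.5 CPM added to both. Grey boxes hold the middle 50% of all genes tested, grey lines their median, and dashed lines 2-fold. Id4 lies above the upper dashed line for BMP4 at 11 h over 96 h (1.64) and over 5 h (1.18), and no other point lies beyond a dashed line.

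Other genes of the pathway were counted from lists of what is known of it. Of 11 ligands named BMP or GDF, not all of which need act through the BMP branch, 7 were tested. Bmp4 itself was at 22.0 CPM at 0 h, 22.4 at 96 h, 18.6 and 21.6 in the 5 h libraries with BMP4 alone and with FGF8, and 25.1 and 22.6 in the 11 h libraries with BMP4 alone and with FGF4. At 96 h, 1 of the 7 was called higher than at 0 h and 1 lower, beside 5.84% of all genes called. Bmp5 rose (11.3 against 3.07 CPM at 0 h) and Gdf11, which patterns the tail region, fell (8.47 against 24.5). No ligand was called over 96 h with BMP4 for 11 h, beside 2.11% of all genes, or with BMP4 and FGF4, beside 1.09%. With so few genes read, this is near those shares. Of 11 receptors and co-receptors, 10 were tested, and 2 were called higher at 96 h than at 0 h, beside 5.84% of all genes called. Bmpr1a, the main type I receptor, lay between 76.8 and 86.9 CPM in all 6 libraries, while Eng, an endothelial co-receptor, rose from 1.91 CPM at 0 h to 9.17 at 96 h. With FGF4 at 11 h, Eng was at 12.8 CPM against 5.34 with BMP4 alone, also called. It was 1 of 2 receptor genes called in that comparison, beside 1.64% of all genes.

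Of 16 SMAD transducers and regulators, 12 were tested, and 2 were called in the library of BMP4 for 11 h over 96 h, beside 2.11% of all genes. Both rose: Tob1 (21.8 against 8.07 CPM) and Skil, a corepressor that binds SMADs (60.7 against 25.4). No gene of the list was called in the other 8 comparisons. Smad1, the only SMAD transducer of the list that was tested, lay between 20.2 and 23.8 CPM. Smad2, Smad3, Smad4 and Smad5 were not tested, so the counts of this list say nothing of them. Of 15 antagonists that act outside the cell, 13 were tested, with 1 called higher and 3 called lower at 96 h than at 0 h, beside 5.84% of all genes called. The lower genes include Grem1 (2.69 against 6.02 CPM). Fst, a secreted binder of activins and BMPs, rose between 5 h and 11 h of BMP4 (12.4 to 26.8 CPM).

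Of 25 other genes known to respond to BMP, 20 were tested. In the library of BMP4 for 11 h, 2 rose over 96 h and none fell, beside 2.11% of all genes called: Evx1, a homeobox gene of the primitive streak and tailbud (12.1 against 3.41 CPM), and Gata3 (10.6 against 4.72). Evx1 fell with FGF4 at 11 h relative to BMP4 alone (4.39 against 12.1 CPM). At 0 h it was at 25.2 CPM, and over the 6 libraries it followed the same order as the tailbud marker sum, whose part in Evx1 was not tested. At 96 h, Hand1 and Hand2, genes of the lateral plate, rose (32.3 against 1.6 CPM and 27.2 against 8.82), and Evx1, Dlx5 and Hey1 fell. Of all genes, 5.84% were called in that comparison.

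The Id proteins act by binding E proteins. Of 20 genes of E proteins and other helix-loop-helix factors, not all of which need bind Id proteins, 16 were tested. The E protein gene Tcf3 lay between 160 and 174 CPM in all libraries. Over 96 h, BMP4 for 11 h gave 2 called genes of 16, both higher, beside 2.11% of all genes. Among them was Msgn1, a presomitic mesoderm factor, at 6.63 against 0.155 CPM. Msgn1 was higher still at 0 h (23.7 CPM) and with BMP4 for 5 h (18.7). It also belongs to the tailbud marker list, and the part of such cells in its level was not tested. At 96 h, 6 of the 16 rose and 3 fell relative to 0 h, beside 5.84% of all genes called, with Tal1, a blood and endothelial factor, at 14.5 against 0.496 CPM. Of 11 genes known to respond to TGF-beta, the sister pathway, 8 were tested, and 4 rose with BMP4 for 11 h over 96 h, beside 2.11% of all genes called. These were Pmepa1 (11.6 against 1.65 CPM), Ctgf (34.1 against 8.28), Cyr61 (97.5 against 38.0) and Skil, which the SMAD list also holds. The median log2 ratio of all 8 was 0.66, beside -0.02 over all genes. With BMP4 and FGF4 for 11 h over 96 h, 3 of the 8 rose, beside 1.09% of all genes called. Their median there was 0.93, beside -0.03 over all genes, so the rise was not particular to BMP4 alone. The list also gave 3 called genes of 8 between BMP4 for 5 h and 0 h, beside 0.339% of all genes. The fibroblast marker sum was 267 CPM with BMP4 for 5 h and 186 at 0 h, and its part in this count was not tested.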

How the data were processed

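The authors deposited 1 table of raw read counts per gene, without normalization, for 6 libraries of total RNA made with a stranded kit, per the labels' protocols. Listed in the submitters' processing notes are the build mm10 and the tools cutadapt, STAR 2.4.0e, HTSeq and DESeq, with no role for any of them. How the reads were counted is not given in the sources used here. Among values from 1 to 20, 65.4% to 70.9% were even, and a count of both mates of a read pair would make the intervals here too narrow.

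Gene names were put in case-insensitive alphabetical order. The 4 growth factor columns hold 19415 to 19826 values beside 19342 names, so each was placed by an order-preserving alignment that penalizes a row whose level falls beyond those of the untreated columns. Read row by row, log2 counts correlated across genes with the untreated columns at r of 0.0471 to 0.138, and after placement at 0.964 to 0.993. Because rows of like level are what the alignment looks for, the latter r is no independent check of the names. Genes were kept where every competing row had a penalty larger by 5 units or more in all 4 columns, where no neighbouring row up to 3 positions away gave a sign of exchanged rows, and where direct alignment of the 5 h columns, and of the 11 h columns, paired the same rows. This kept 16501 names with 97.26% to 97.42% of the counts. Genes far outside the untreated range are placed less often, so shares of genes called are incomplete, and values between the untreated libraries are favoured. The placement and the ratios were tested on simulated data, and no result here rests on that test.

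Kept counts were scaled by TMM (edgeR 4.0.16, R 4.3.3), and the genes tested had 1 CPM or more in 1 or more of the libraries. Log2 ratios were taken after adding 0.5 CPM, which understates changes of low genes. Python 3.11.15, numpy 2.4.6, scipy 1.17.1 and numba 0.67.0 were used. Gene positions are from GENCODE on mm10, and sequences from the RefSeq promoter table. DESeq2 1.42.0 size factors were an alternative, with others given in the closing section. The target genes and all lists were chosen with earlier results of these data known. All target genes are named. From each other list, genes named as called are up to 4 with the largest absolute log2 ratio and a mean of at least 5 CPM, and Acvrl1 and others outside this rule are left to the counts. Bmp4, Bmpr1a, Smad1, Tcf3, T, Tbx6 and A330033J07Rik were named for their role or position, and Dlx5 was named after its values were seen, to complete a count.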

Additional observations from a re-analysis of the deposited data

Results flagged for a closer look

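Id2 moved in opposite directions over the 96 h library at the different lengths of treatment. Its log2 ratio was -0.23 with BMP4 for 5 h and -0.14 with BMP4 and FGF8 for 5 h, but 0.37 with BMP4 for 11 h and 0.055 with BMP4 and FGF4 for 11 h. The difference between 5 h and 11 h was not tested, since each condition has 1 library. All 4 ratios share the same 96 h library, and the 5 h libraries resembled 0 h in their marker sums.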

How the results depend on the processing

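The count of target genes called changed in 6 places. With 2 CPM added in place of 0.5, BMP4 for 11 h over 5 h gave 0 called genes and not 1, beside 1.06% of all genes. With 0.1 CPM added, BMP4 with FGF8 over 96 h gave 1 (Smad9) and not 0, beside 6.79%. BMP4 with FGF4 over 96 h then gave 1 (Id4) and not 0, beside 1.95%. With plain total counts, BMP4 with FGF4 over 96 h gave 1 (Id4), beside 1.2%. With a placement margin of 10 units, Id4 and Smad9 were not placed. BMP4 for 11 h over 96 h and over 5 h then each gave 0, beside 0.98% and 1.37%. DESeq2 size factors, no filter on low counts, a filter of at least 5 CPM (which drops Smad9), placement on either untreated column alone and, chosen after seeing the data, scaling without the 5 h libraries left all counts as they were, where they could be run. No called ratio changed sign. Plain totals moved the median of all genes to -0.101 (BMP4 for 11 h over 96 h), 0.109 (BMP4 with FGF4 over BMP4 at 11 h) and -0.11 (BMP4 at 11 h over 5 h), so ratios near 0 there depend on the scaling.

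Counts over all genes moved by over 1.5 times under some settings. In the order 96 h over 0 h, BMP4 at 5 h over 96 h, BMP4 at 11 h over 96 h, BMP4 with FGF8 over 96 h, BMP4 with FGF4 over 96 h, FGF8 added, FGF4 added, BMP4 at 11 h over 5 h and BMP4 at 5 h over 0 h, the numbers called were 792, 708, 286, 710, 148, 25, 222, 354 and 46. With 2 CPM added they were 450, 413, 122, 403, 55, 13, 91, 144 and 15, and with the margin of 10 units 507, 448, 110, 453, 27, 8, 70, 154 and 5. With at least 5 CPM required they were 527, 468, 167, 461, 76 and 15 in the first 6, and 212 and 27 in the last pair. With 0.1 CPM added, BMP4 at 11 h over 96 h gave 435, BMP4 with FGF4 over 96 h gave 265 and BMP4 at 5 h over 0 h gave 72. Plain totals split the calls for FGF4 added into 191 higher and 60 lower, against 146 and 76. No paired analysis was possible because each condition has 1 library. No library could be left out of its condition for the same reason. Depth allowed intervals of a few percent for most target genes, and wider ones for Id4 and Smad9, which rest on 357 to 1025 counts.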

Other observations

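Smad6 and Smad7 did not pass the placement rules in the 11 h columns. With BMP4 for 11 h the favoured rows passed the margin, at 8.185 and 8.1 units. Direct alignment of the 11 h columns did not pair the same rows, and with FGF4 the margins were 3.082. The rows with BMP4 for 11 h held 2246 (Smad6) and 5940 (Smad7) counts, beside 3352 and 3056 at 96 h, before scaling. Whether Smad7 differed at 11 h is thus not settled here. Each gene was placed with a margin over 13 units in both 5 h columns when these were judged on their own, a reading chosen after seeing the data. Smad6 was at 11.6 CPM with BMP4 for 5 h and 12.5 with BMP4 and FGF8, log2 ratios of -0.12 and -0.01 over 96 h. Smad7 was at 13.2 and 13.3 CPM, log2 ratios of 0.19 and 0.20. None passed 1.5-fold. The placement favours rows near the untreated levels, so these values are no independent sign that the genes stayed near them.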
